A study of Mus musculus with 6 samples.

Results

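The replication-dependent histone genes are the family that supplies the bulk of histone protein while DNA is copied. They were taken here as every row of a mouse liver tumor RNA-seq table whose gene symbol begins with Hist1h, Hist2h, Hist3h or Hist4h. By this rule 58 of the 30236 rows were histone genes, comprising 6 linker histone H1 genes, 18 H2A genes, 16 H2B genes, 5 H3 genes and 13 H4 genes. The GENCODE M21 annotation carries 70 symbols of this form, and the other 12 had no row and were not analysed here. Most of them are H3 genes (Hist1h3d, Hist1h3f, Hist1h3g, Hist1h3h, Hist1h3i, Hist2h3b and Hist2h3c1). The rest are the H2A genes Hist2h2aa1 and Hist2h2aa2 and the H2B genes Hist1h2bh, Hist1h2bm and Hist2h2bb. Statements on families below therefore cover only the genes with a row, and fewest of all for H3.

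H2A, H2B, H3 and H4 form the protein core around which DNA is wrapped, and H1 binds the DNA that enters and leaves it. The genes lie in clusters and are switched on together at the start of S phase, when a cell needs histones for newly made DNA. Their mRNAs are the known exception among messenger RNAs of animal cells in that most end in a short hairpin, the stem-loop, in place of a poly(A) tail. The stem-loop binding protein Slbp holds the hairpin, and the mRNAs are degraded once DNA synthesis stops. In differentiated or resting cells some of these genes also give mRNAs that run past the hairpin and carry a tail. How much histone mRNA a library shows can therefore vary both with the dividing cells in a tissue and with whether RNA without a tail was kept when the library was made.

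RNA came from liver tumors of male C57BL/6 mice that were wild type (WT) or carried the Top1mt -/- genotype (Top1mt-KO, shortened to KO for single libraries). Top1mt encodes the mitochondrial DNA topoisomerase. Both genotypes received the carcinogen diethylnitrosamine at postnatal day 14, then carbon tetrachloride, which injures hepatocytes, from 8 weeks of age for 14 weeks, and tumors were collected at 22 weeks. There were 3 libraries per genotype, from tumors that the study chose to be of the same size. The study calls these tumors independent, and the labels do not say whether each came from a separate mouse, so that p-values measure the spread between these samples. The labels name total RNA as the starting molecule and a stranded Illumina kit with the catalogue number RS-122-2201. The sources used here do not say in words whether poly(A) selection or removal of ribosomal RNA was used, and the number was not looked up. Values are the authors' normalized log2 expression per gene symbol, the depth of the libraries is unknown, and libraries are called below by genotype and replicate number as labelled.

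The deleted gene was read first as a check of the labels. The log2 level of Top1mt was 7.71, 5.99 and 8.01 in replicates 1, 2 and 3 of WT and 5.58, 6.41 and 6.32 in those of KO. The library labelled WT replicate 2 lay inside the KO range, so Top1mt goes against its label, and every difference between genotypes below is given with this in mind. The KO mean differed from the WT mean by -1.13 (exact two-sided permutation test, p = 0.3, n = 3 per group), in a design that allows no p below 0.1.

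KO replicate 1 stood apart for another reason. Gm42418, a row named in an earlier description of these libraries for its unusual share, had a log2 level of 22.00 in KO replicate 1 and 15.80 in WT replicate 3, beside 12.36 and 12.68 in the other WT libraries and 11.71 and 11.66 in the other KO libraries. Lars2 was at 20.06 in KO replicate 1 and 12.67 in WT replicate 3 and between 8.44 and 9.05 elsewhere. Gm15564 was at 16.84 and 8.85 in the same libraries and between 3.93 and 4.83 elsewhere. These 3 rows were listed because their unusual share was already known, so their order is no independent evidence on the libraries.

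The tissue label was met by the hepatocyte genes. Of 9 hepatocyte markers 8 were rows of the table, and their median percentile by level among the 22677 genes tested was 99.96, with albumin (Alb) the highest by mean over the libraries, at 20.26 to 21.12. T cell markers were low, with a median percentile of 35.6.

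Most histone genes passed a filter by level. It kept genes whose mean log2 value over the libraries lay above the lowest 25%, and 57 of the 58 histone genes passed it. With depth unknown, passing it does not show that a weak gene was detected. The exception was Hist1h2aa, a germline type of H2A, at -2.08 to -2.12 in the libraries. The mean log2 levels of the 57 ran from 0.11 to 10.49, and their median percentile by level was 52.5. Histone mRNAs are short, so levels of different genes are compared per length, as the log2 value minus the log2 of exonic length in kb. On that scale the median percentile of the histone genes rose to 77.3. Percentiles per length are taken among the tested genes whose symbol matched a single annotated gene, which are fewer than all genes tested.

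Among the histone genes analysed, the 10 highest per length encode H4, H2B, H3 and H1, with no H2A gene among them. Hist1h4h, which encodes histone H4, led with a mean level per kb of 10.56. Hist1h2bc, an H2B gene, followed at 9.99, and Hist1h1c, which encodes the linker histone H1.2, at 9.84. These stood at percentiles of 98.3, 97.4 and 97.2 of the tested genes with a length, on the same scale. The H4 genes Hist1h4d, Hist1h4c and Hist1h4f had levels per kb of 9.51, 9.42 and 9.32. The rest were Hist1h1e (8.86, encoding H1.4), Hist1h2bb (8.68), Hist1h3e (8.61) and Hist1h4k (8.61). H4 genes thus took 5 of these 10 places. The median percentile per length was 87.7 over the 13 H4 genes and 86.7 over the 5 H3 genes. It was 60.9 over 17 H2A genes and 69.7 over 16 H2B genes. The models differ in length, from 312 bases in Hist1h4k, which ends at the stop codon, to 7425 in Hist1h1d. Sequence shared between copies, described further below, was not corrected for. The part of model length and shared sequence in this order was not tested. At the low end were germline genes such as Hist1h1t, the testis linker histone, with a mean level per kb of 1.41, and near-identical H2A and H2B copies described further below.

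The hairpin itself can be read in the transcript models. Each GENCODE M21 transcript was searched on its own strand for 16 bases that begin with GG, in which the outer 6 bases on either side pair perfectly and the loop of 4 bases begins with TT. A match was found for 37 of the 58 histone genes (63.8%) and for 107 of 21884 other protein-coding genes (0.489%). Of the 21 histone genes without a match, 3 are annotated pseudogenes and 12 have models that end within 15 bases of the stop codon, before a hairpin could lie. Where found, the match began 21 to 54 bases after the stop codon, with a median of 31. There were 6 forms, of which 1 was carried by 20 genes and another, seen only in H4 genes, by 7. They are shown because the hairpin is what sets these mRNAs apart, 1 gene per form, from the 3′ untranslated region on GRCm38, with the 16 matched bases in capitals.
Hist1h1c: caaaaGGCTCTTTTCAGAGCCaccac
Hist1h4d: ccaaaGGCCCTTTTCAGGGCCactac
Hist1h2bb: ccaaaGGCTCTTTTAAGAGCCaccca
Hist2h4: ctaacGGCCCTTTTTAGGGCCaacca
Hist1h4b: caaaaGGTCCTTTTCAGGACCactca
Hist2h2ac: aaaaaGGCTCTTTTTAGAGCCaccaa
The capitals lie at chr13:23739512-23739527 (plus strand) for Hist1h1c, chr13:23581950-23581965 (plus) for Hist1h4d, chr13:23747203-23747218 (plus) for Hist1h2bb, chr3:96262939-96262954 (minus) for Hist2h4, chr13:23757366-23757381 (plus) for Hist1h4b and chr3:96220418-96220433 (minus) for Hist2h2ac. In 14 of the 37 genes the model runs on for 300 or more bases past the hairpin, as in Hist1h1c (840 bases) and Hist1h1d (4884 bases), and in 23 it stops sooner.

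RNAs known to be made without a poly(A) tail were mostly abundant, with a median log2 level of 10.36 to 11.42 in the libraries. The weakest of the 13 listed had a mean of 2.97. The log2 level of Rn7sk, the RNA of the 7SK particle that holds back transcription elongation, was 16.77, 17.03 and 16.72 in WT libraries and 17.52, 16.70 and 16.37 in KO libraries. By mean level it ranked 12 of the 30236 rows. Rpph1, the RNA of ribonuclease P, was at 15.17, 15.44 and 15.62 in WT and 15.88, 14.97 and 14.54 in KO and ranked 34. Both genotypes overlapped for each. All 13 listed small RNAs without a tail passed the filter, with a median percentile per length of 99.6. Histone mRNA and small RNA without a tail were both read in all 6 libraries. Histone genes whose models stop under 300 bases after the hairpin (23 genes) had a median percentile of 83.1 per length and 52.2 by level, beside 76.4 and 64.7 over the 14 genes with longer models, so that their order turned with the scale. This grouping was made after values were seen.

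Histone levels differed between libraries of the same genotype. The median log2 level of the 57 genes was 5.71, 6.08 and 6.55 in replicates 1, 2 and 3 of WT and 6.37, 6.09 and 6.23 in those of KO. WT replicate 3 and KO replicate 1 were highest and WT replicate 1 lowest, and the genotypes overlapped, with the highest and the lowest library both WT. Over all genes tested the medians lay between 5.65 and 5.83. In bulk tissue fewer cells that make histone mRNA and less of it per cell cannot be told apart.

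**Figure D1:**
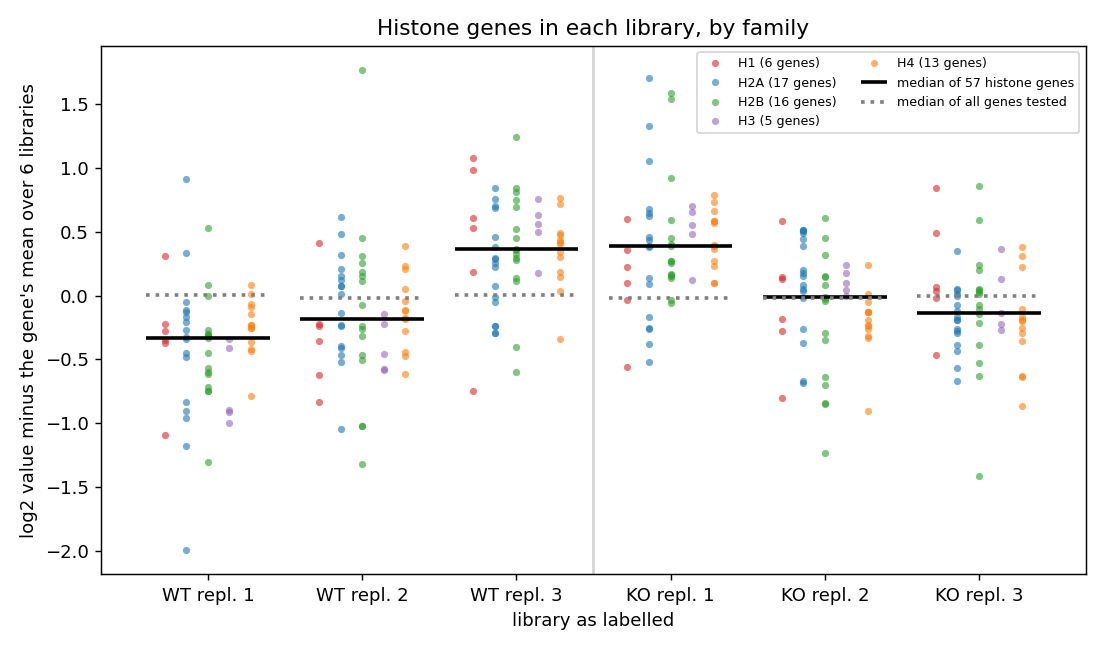
Each point is 1 histone gene in 1 library, as its log2 value minus its own mean over the 6 libraries (vertical axis), with libraries by label on the horizontal axis and colors for histone families. Black lines are medians of the 57 genes, at 0.36 in WT replicate 3 and 0.39 in KO replicate 1 and at -0.33 in WT replicate 1, and dotted lines are medians of all genes tested.

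Gene by gene most, not all, histone genes were highest in the same libraries. KO replicate 1 was the highest library for 23 histone genes and WT replicate 3 for 20, together 43 of 57 (75.4%), beside 35.5% of all genes tested. This pair of libraries was named from these same values, so its share describes them and is no test. The library labelled WT replicate 2 was highest for 5, KO replicates 2 and 3 for 4 each, and WT replicate 1 for 1. WT replicate 1 was the lowest library for 24 histone genes (42.1%), beside 17.4% of all genes tested. WT replicate 1 was below WT replicate 3 in 52 of 57 histone genes, with a median difference (WT replicate 3 minus WT replicate 1) of 0.64, although both carry the same genotype. KO replicate 1 lay above KO replicate 3 in 46 of 57, with a median difference of 0.58, and above KO replicate 2 in 44, with a median of 0.45. WT replicate 3 and KO replicate 1, of opposite genotype, differed by a median of -0.04. The range over libraries had a median of 1.31 for histone genes and 1.03 for all genes tested, and exceeded 1 in 40 of 57 histone genes (70.2%) and in 51.4% of all genes tested.

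The linker histones did not all share that order. Log2 levels of Hist1h1c were 10.14, 10.24 and 10.67 in WT libraries and 9.93, 10.61 and 11.33 in KO libraries. This most abundant linker gene was highest in KO replicate 3 and lowest in KO replicate 1, so that KO libraries enclosed all WT values. Hist1h1e was at 9.44, 9.59 and 10.42 in WT and 10.03, 9.53 and 9.85 in KO, with its peak in WT replicate 3 and overlapping groups. Hist1h1a, which encodes H1.1, stood at 6.90, 6.82 and 8.16 in WT and 7.14, 7.32 and 6.71 in KO. Hist1h1b, which encodes H1.5, stood at 6.73, 6.12 and 8.03 in WT and 7.05, 6.77 and 7.02 in KO. Both were higher in WT replicate 3 than in any other library, and their groups overlapped.

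Hist1h1d, which encodes H1.3, was the linker gene with the widest gap between genotypes. Its log2 level was 7.15, 8.65 and 7.49 in WT libraries and 8.60, 8.82 and 8.72 in KO libraries. The KO libraries lay close together and above WT replicates 1 and 3, while the library labelled WT replicate 2 fell among them. The difference (KO minus WT) was 0.96 ± 0.35 (SE; limma unadjusted p = 0.0270, adjusted p = 0.999). Without the library labelled WT replicate 2 it was 1.40, without WT replicate 1 it was 0.65 and without WT replicate 3 it was 0.82. Its place under an unadjusted p of 0.05 (limma) was lost without WT replicate 1, WT replicate 3, KO replicate 2 or KO replicate 3, and by limma without trend, although without KO replicate 2 or 3 the difference was still 0.90 and 0.95. It was kept without the library labelled WT replicate 2, without KO replicate 1, without both and with the replicate block. The testis gene Hist1h1t remained at 0.48 to 1.88 in all libraries.

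Core histone families followed WT replicate 3 and KO replicate 1 to differing degrees. All 5 H3 genes and 12 of the 13 H4 genes were highest in 1 of these libraries, as were 13 of 16 H2B genes and 9 of 17 H2A genes, beside 4 of 6 linker genes. Whether families differ in this was not tested. Log2 levels of Hist1h4d were 9.45, 9.53 and 9.85 in WT libraries and 10.37, 9.51 and 9.50 in KO libraries. Hist1h4h, the gene highest per length, was at 9.24, 9.43 and 9.77 in WT and 9.86, 9.23 and 9.28 in KO. Hist1h4c stood at 9.06, 8.69 and 9.31 in WT and 9.87, 9.0 and 8.84 in KO. In these H4 genes KO replicate 1 was highest and WT replicate 3 next, and the other 4 libraries were lower. Hist1h4f and Hist1h4k had the reverse order, with 8.68 and 7.70 in WT replicate 3 and 8.36 and 7.30 in KO replicate 1, above 7.60 to 7.77 and 6.32 to 6.95 in the remaining libraries. In none of these H4 genes did the groups separate.

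The H3 genes were lowest in WT replicate 1 for 4 of 5, and Hist1h3a was lowest in the library labelled WT replicate 2, at 6.12 beside 6.29. Hist1h3e was at 8.01, 8.13 and 8.53 in WT and 8.91, 8.45 and 8.08 in KO. Hist1h3c was at 5.94, 6.38 and 7.60 in WT and 7.55, 6.88 and 6.70 in KO. Both were lowest in WT replicate 1 and highest in KO replicate 1 or WT replicate 3, and the groups overlapped. The median of the 5 H3 genes, as the log2 value minus the gene's mean, was -0.90 in WT replicate 1, 0.56 in WT replicate 3 and 0.55 in KO replicate 1.

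Among H2B genes Hist1h2bc was highest in KO replicate 1 but low in WT replicate 3. Its log2 level was 10.20, 10.36 and 9.79 in WT libraries and 10.47, 10.16 and 10.23 in KO libraries, so WT replicate 3, high for most histone genes, was its lowest library. Its model holds no perfect hairpin. Of all 20 histone genes past the filter without one, 14 were highest in WT replicate 3 or KO replicate 1. Hist1h2bb was at 7.08, 7.63 and 8.39 in WT and 8.09, 7.41 and 7.60 in KO, highest in WT replicate 3 and next in KO replicate 1. Both H2B genes had overlapping groups. The 3 H2B genes highest elsewhere were Hist1h2ba and Hist3h2ba, in the library labelled WT replicate 2, and Hist2h2be, in KO replicate 3.

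The 10 histone genes with the largest range over libraries were mostly weak. Hist2h2ab ranged most, by 3.70, with log2 levels of 0.85, 1.80 and 3.68 in WT and 4.55, 3.35 and 2.84 in KO. Hist3h2ba ranged by 3.08, with 0.72, 3.80 and 3.27 in WT and 2.19, 0.79 and 1.40 in KO. Hist1h2ap was at 0.28, 1.32 and 1.22 in WT and 2.79, 1.97 and 1.16 in KO. Hist2h2ab and Hist1h2ap were highest in KO replicate 1 and lowest in WT replicate 1, Hist3h2ba was highest in the library labelled WT replicate 2, and all of them overlapped between genotypes. Hist1h2bp and Hist1h2bq peaked in KO replicate 1 at 4.40 and 2.36, beside at most 3.09 and 1.13 elsewhere. Hist3h2bb-ps, an annotated pseudogene, was at 1.88, 1.16 and 2.83 in WT and 3.40, 3.09 and 2.52 in KO. The remaining genes were Hist1h2ba (range 1.86, a testis H2B), Hist1h1b (1.91), Hist1h2bl (1.77) and Hist1h2an (1.74). On this scale weak genes may be drawn toward their mean, which was not tested, so that a difference of a weak gene may be understated.

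The design allows histone genes to be compared between Top1mt-KO and WT tumors. No histone gene passed an adjusted p of 0.05 by limma, as 0.0% of the 22677 genes tested did, although 985 of these had an unadjusted p under 0.05. Only 1 histone gene, Hist1h1d, was higher in KO at an unadjusted p under 0.05 (background 1.79% of all genes tested), and 0 were lower (background 2.56%). No histone gene had all KO values above all WT values, against 3.95% of all genes tested, and none had all below, against 4.33%. The median difference over the 57 genes (KO minus WT, log2) was 0.12, beside -0.02 over all genes tested, and 32 of 57 were above 0.

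Single libraries carried that median. Without KO replicate 1 it was -0.06, without WT replicate 1 it was -0.02, and without WT replicate 3 it was 0.31. Without the library labelled WT replicate 2, whose Top1mt goes against its label, the median was 0.03. It was 0.18 without KO replicate 2 and 0.20 without KO replicate 3. Leaving out WT replicate 3 alone brought 15 histone genes to groups that did not overlap, all higher in KO (7.98% of all genes tested in that setting), and 6 to an unadjusted p under 0.05, all higher in KO (1.83% of all genes tested in that setting). Leaving out WT replicate 1 gave 4 genes with all KO values below WT, or 7.02%, near the 8.86% of all genes tested in that setting. Without both the library labelled WT replicate 2 and KO replicate 1 the median was -0.08, in an alternative chosen after seeing the data. The sign of the median thus turned with the library left out.

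The remaining genes with the largest differences are given as values. Differences (KO minus WT, log2) were 1.47 ± 0.80 (SE) for Hist2h2ab, 1.04 ± 0.55 for Hist3h2bb-ps, 1.03 ± 0.53 for Hist1h2ap and -1.14 ± 0.82 for Hist3h2ba. Smaller differences were 0.69 for Hist1h2bq, 0.67 for Hist2h3c2, 0.66 for Hist1h2bl, 0.56 for Hist1h2af and -0.57 for Hist1h2ba. With libraries left out these ran from 0.83 to 2.26 for Hist2h2ab, 0.45 to 1.48 for Hist3h2bb-ps, 0.63 to 1.44 for Hist1h2ap, -2.08 to -0.54 for Hist3h2ba, 0.10 to 1.22 for Hist1h2bq, 0.34 to 1.12 for Hist2h3c2, 0.32 to 1.20 for Hist1h2bl, 0.25 to 0.93 for Hist1h2af and -0.91 to -0.0065 for Hist1h2ba. The limma adjusted p of every one of the 57 histone genes rounded to 0.999 or higher, and none of these differences stood clear of the spread between replicates.

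Genes of the cell cycle were set beside the histone genes in each library. The 18 genes of G2 and mitosis were lowest in WT replicate 1 for 17 genes and highest in WT replicate 3 for 13. Mki67, the gene of the proliferation marker Ki-67, was at 9.63, 10.65 and 10.67 in WT and 10.81, 10.50 and 10.31 in KO. WT replicate 1, where the histone median was lowest, was also lowest for Mki67, KO replicate 1 was highest, and the groups overlapped. By staining for the Ki-67 protein the study found Top1mt-deficient liver tumors less proliferative. That measure counts stained cells, whereas these values are RNA levels in bulk tumors of matched size. The S phase genes did not follow in WT replicate 1, which was lowest for 4 of 20, with a median of the log2 value minus the gene's mean of 0.04. The 20 genes of S phase and DNA replication were highest in WT replicate 3 for 13 genes and in KO replicate 1 for 2. Mcm2, a subunit of the replicative helicase, was at 7.49, 7.52 and 8.08 in WT and 7.0, 7.18 and 7.35 in KO, highest in WT replicate 3 and lowest in KO replicate 1, with no overlap between groups. Uhrf1, a chromatin factor of S phase, was at 6.61, 5.60 and 7.96 in WT and 6.25, 6.75 and 6.45 in KO. In WT replicate 3 histone, S phase and mitosis genes were all high, whereas in KO replicate 1 the histone genes were high while the median of the log2 value minus the gene's mean was -0.16 over the S phase genes and 0.19 over the mitosis genes. Of the S phase genes 0 were higher and 1 (Mcm2) lower in KO at an unadjusted p under 0.05, and of the mitosis genes 0 either way, beside 1.79% and 2.56% of all genes tested. All KO values were below all WT values in 2 of the 20 S phase genes, Mcm2 and E2f1 (4.33% of all genes tested).

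**Figure D2:**
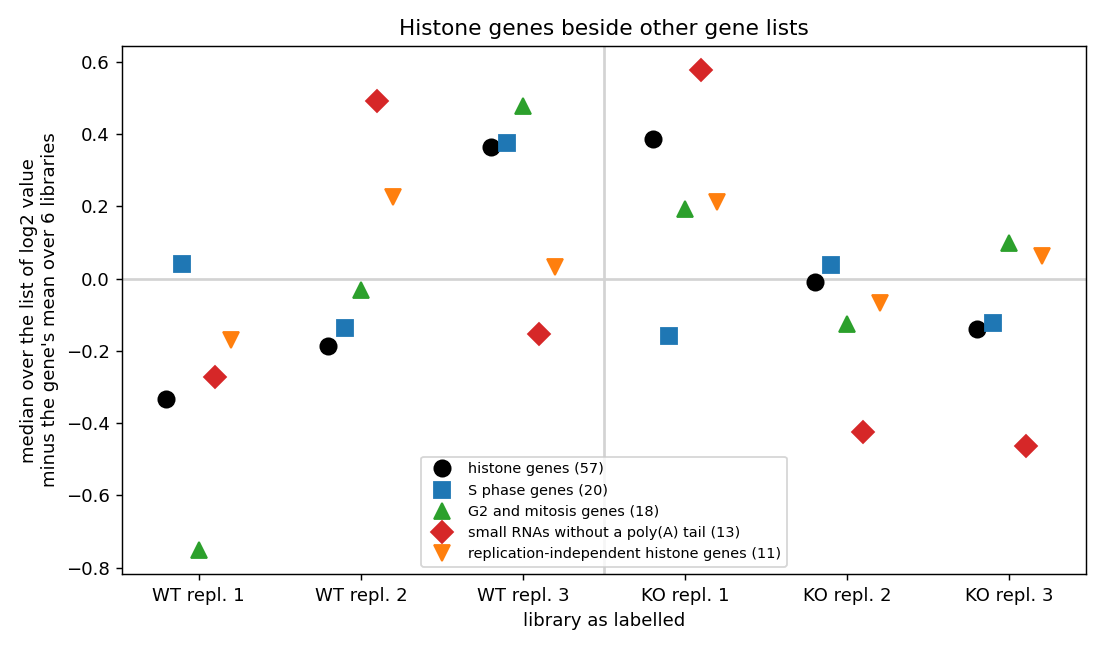
Each symbol is the median over a gene list of the log2 value minus the gene's mean over 6 libraries (vertical axis), for each library by label (horizontal axis). Histone genes stand at 0.36 beside S phase genes at 0.38 and small RNAs without a tail at -0.15 in WT replicate 3, and at 0.39 beside -0.16 and 0.58 in KO replicate 1.

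The small RNAs without a tail sorted the libraries in another way. They were highest in KO replicate 1 for 6 of 13 RNAs and in the library labelled WT replicate 2 for 6, and in WT replicate 3 for 0. The log2 of their summed level was 17.38, 17.73 and 17.50 in WT libraries and 18.21, 17.28 and 16.97 in KO libraries, with Rn7sk the most abundant. The log2 of the summed histone level was 12.95, 13.13 and 13.55 in WT libraries and 13.53, 13.20 and 13.36 in KO libraries. KO replicate 1 was thus high for histone genes and for small RNAs without a tail, WT replicate 3 for histone genes but not for these RNAs, and the library labelled WT replicate 2 for these RNAs but not for histone genes. Gm42418, Lars2 and Gm15564 also were highest in KO replicate 1 and next in WT replicate 3, as known when they were listed. The part of these RNAs and rows in the histone levels was not tested. Nuclear long RNAs (Malat1, Neat1, Meg3) had 0 of 3 genes at an unadjusted p under 0.05, with Malat1 at 16.79 to 17.75. Of all genes tested 1.79% were higher and 2.56% lower in KO at that p.

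Histone genes outside the replication-dependent group had a smaller median range. Over 11 replication-independent genes, most of whose mRNAs are known to carry a tail, it was 0.78 over libraries, but they also were more abundant, with a median percentile by level of 75.8 beside 52.5. H3f3b, which encodes the H3.3 variant, was at 11.17, 11.33 and 11.50 in WT and 11.05, 11.48 and 11.51 in KO. H2afz, which encodes H2A.Z, was at 9.15, 9.81 and 9.42 in WT and 9.41, 9.39 and 9.36 in KO. Neither was highest in KO replicate 1. H2afx, whose mRNA is known in both forms, was at 6.90, 7.37 and 8.14 in WT and 7.75, 7.28 and 7.71 in KO, lowest in WT replicate 1 and highest in WT replicate 3 and then KO replicate 1, as for the histone genes. Its transcript model holds a perfect hairpin of its own form at chr9:44335240-44335255 (plus strand), with 822 bases after it.
H2afx: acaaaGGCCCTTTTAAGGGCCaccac
Of the 11 genes 1, the weak linker variant H1fx, was higher in KO at an unadjusted p under 0.05, and 0 were lower. Of all genes tested 1.79% were higher and 2.56% lower in KO at that p.

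Factors that make, process and degrade histone mRNA mostly had small ranges over libraries. Slbp was at 7.80, 7.99 and 8.01 in WT and 7.84, 7.97 and 7.96 in KO, a range of 0.21. Among the 10 genes of hairpin binding and 3′ cleavage in the table, 0 of 10 had an unadjusted p under 0.05. Of all genes tested 1.79% were higher and 2.56% lower in KO at that p, so 0 in lists this short says little. The median range of these 10 genes was 0.48. The exception was the weak gene Zfp473, whose range of 2.21 exceeded that of most histone genes. The 4 genes of histone gene transcription, led by Npat, the factor of the histone locus body, and the 5 genes of histone mRNA decay had 0 at that threshold, with median ranges of 0.44 and 0.43. The 12 histone chaperones had 0 as well, with a median range of 0.57, and 3 of 12 (Asf1b, Chaf1a and Nasp) had a range above 1, up to 1.54. Nasp, which carries H1 and H3 with H4, was at 8.13, 8.24 and 8.64 in WT and 7.60, 8.21 and 8.17 in KO, highest in WT replicate 3 and lowest in KO replicate 1. The median range of the histone genes, 1.31, was above that of each of these lists, whose median percentiles by level, 67.6 to 83.0, were also above the 52.5 of the histone genes.

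Markers of other cells also differed in the libraries where histone genes were high. Macrophage markers were highest in WT replicate 3 for 4 of 5 genes and neutrophil markers for 3 of 5. The log2 of the summed macrophage level, led by Csf1r, was 11.89, 11.50 and 12.59 in WT libraries and 11.44, 11.96 and 12.25 in KO libraries, and that of the neutrophil markers, led by S100a9, was 7.83, 8.77 and 9.52 in WT libraries and 7.27, 7.24 and 8.05 in KO libraries. WT replicate 3 was the highest library for both sums, while KO replicate 1 was lowest for macrophage markers. Bile duct markers had a median of the log2 value minus the gene's mean of 1.27 in WT replicate 3 and -1.40 in KO replicate 1. The log2 of the summed bile duct level, led by Spp1, was however lowest in WT replicate 3, at 11.58. That of the hepatocyte markers was lowest in WT replicate 3 at 21.02 and highest in KO replicate 1 at 21.81. In KO replicate 1 the stellate cell sum, led by Col1a2, was lowest at 10.89, beside 11.57 to 13.32 elsewhere. WT replicate 1, where the histone median was lowest, was highest for 4 of 5 stellate cell genes and 4 of 6 erythroid precursor genes. The granulocyte precursor genes Mpo and Elane were highest in the library labelled WT replicate 2, at 5.09 and 4.41. No marker list had a gene with a mean log2 level below 0. Counts at an unadjusted p under 0.05 (higher and lower in KO, beside 1.79% and 2.56% of all genes tested) were 0 and 0 of 5 for macrophages, 0 and 2 of 5 for neutrophils, 0 and 3 of 6 for erythroid precursors (Hba-a1, Hbb-bs and Klf1), 0 and 1 of 6 for B and plasma cells, 0 and 0 of 5 for T cells, 1 and 0 of 5 for endothelium, 0 and 1 of 5 for stellate cells, 0 and 2 of 5 for bile duct and 0 and 0 of 8 for hepatocytes. The part of these cells in the histone levels was not tested.

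The library order was also read by position in the genome. On GRCm38 the Hist1 genes lie on chromosome 13 in a stretch of 21 genes (chr13:21715763-22043676) and another of 27 genes (chr13:23531050-23934851), with the pseudogene Hist1h2al apart. Hist2 genes lie on chromosome 3, Hist3 genes on chromosome 11 and Hist4h4 on chromosome 6. In the first stretch the median of the log2 value minus the gene's mean was -0.27 in WT replicate 1, 0.30 in WT replicate 3 and 0.36 in KO replicate 1. In the second, over 26 genes past the filter, it was -0.34, 0.36 and 0.39. In the 5 Hist2 genes it was -0.45, 0.56 and 0.62. Each of these groups thus had WT replicate 1 below 0 and WT replicate 3 and KO replicate 1 highest, while in Hist2 the library labelled WT replicate 2 was lowest at -0.52 and KO replicate 3 stood at 0.36. The 3 Hist3 genes had WT replicate 1 at -0.60, WT replicate 3 at 0.35 and KO replicate 1 at 0.16. Single genes elsewhere kept this order in part or not. Hist4h4 was highest in KO replicate 1 at 0.58 and WT replicate 3 at 0.47 but had WT replicate 1 at 0.09 and KO replicate 3 lowest at -0.63. Hist1h2al had WT replicate 1 at -0.12 and KO replicate 1 at 0.44. Its WT replicate 3 was at -0.24, and the library labelled WT replicate 2 was highest at 0.48. Levels differed between both Hist1 stretches, with a median percentile per length of 72.6 in the first and 87.5 in the second. The part of model length and shared sequence in this was not tested.

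**Figure D3:**
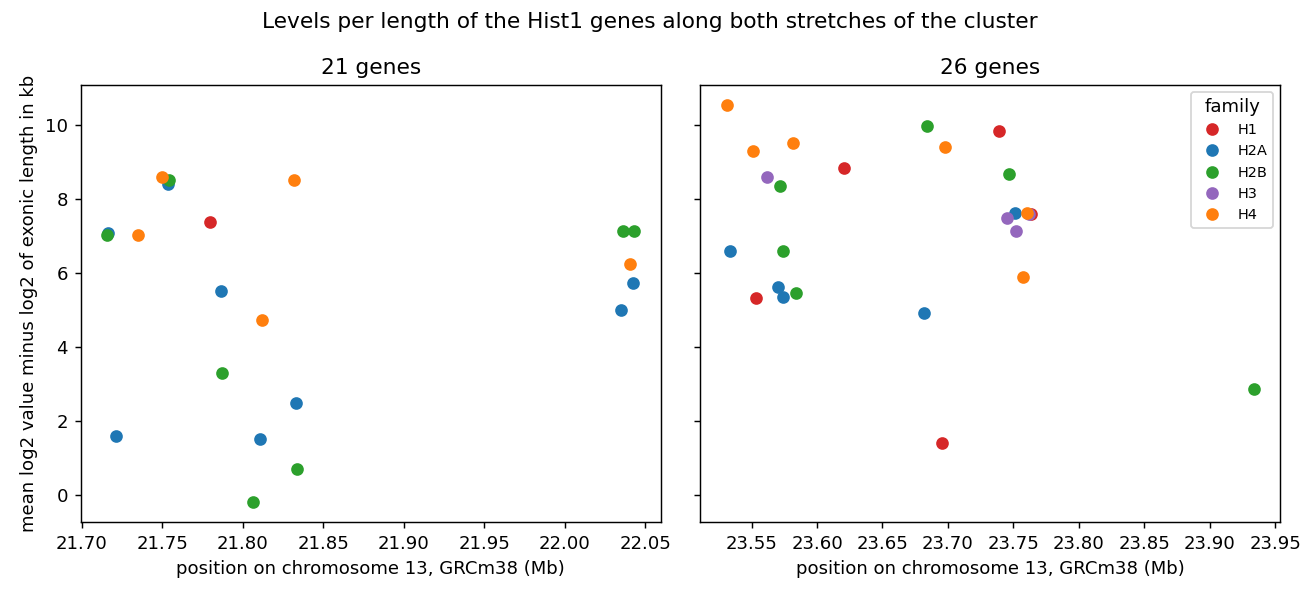
Each point is a Hist1 gene that passed the filter, at its position on chromosome 13 of GRCm38 in Mb (horizontal axis) and its mean log2 value minus log2 of exonic length in kb (vertical axis), colored by histone family. The 21 genes on the left have a median percentile per length of 72.6 and the 26 on the right of 87.5, where Hist1h4h is the highest at 10.56.

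H2A and H2B genes often stand head to head and share a promoter. Among the rows, 13 pairs of histone genes start on opposite strands with 172 to 305 bases between them, and for 12 pairs both genes passed the filter. The same library was highest for both genes in 4 of the 12 pairs (33.3%), beside 29.1% of all ways to pair 2 of the 57 genes. Hist1h2ae, an H2A gene, was at 4.80, 4.71 and 5.20 in WT and 5.80, 5.28 and 4.95 in KO. Its partner Hist1h2bg, an H2B gene, was at 7.33, 7.85 and 7.80 in WT and 7.92, 7.63 and 7.45 in KO. KO replicate 1 was highest for both, and their groups overlapped. The 175 bases between them, chr13:23571221-23571395 on GRCm38.p6 from RefSeq (plus strand, reading toward Hist1h2bg), are shown as an example of such a promoter, chosen after values were seen, with matches to TATAAA and CCAAT on either strand in capitals.
Hist1h2ae-Hist1h2bg: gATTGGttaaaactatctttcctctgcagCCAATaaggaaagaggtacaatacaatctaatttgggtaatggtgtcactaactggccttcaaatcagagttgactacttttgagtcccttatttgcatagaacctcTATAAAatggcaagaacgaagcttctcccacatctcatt
The stretch holds 1 match to TATAAA and 2 to CCAAT, and neither motif contains the other. RefSeq promoters, from 250 bases before to 50 after the gene start, were matched on the gene's own strand to 50 of the 58 histone genes. Of these 31 (62.0%) held TATAAA on either strand, beside 14.2% of 27025 promoters, and 41 (82.0%) held CCAAT, beside 37.9%. Windows of head-to-head partners can overlap, as for Hist1h2ae and Hist1h2bg, and those of Hist1h2bq and Hist1h2br hold the same sequence. The same match can thus count for both genes, and the windows are not separate promoters. A match describes letters in a window only.

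Values of single histone genes are uncertain where copies are alike. In 43 of the 58 genes 10% or more of all stretches of 100 bases in the transcript models also occur in transcripts of another gene, and in Hist1h2bq 96.9% do. Near-identical genes such as Hist1h2ap (92.2%), Hist1h2ao (92.7%) and Hist1h4m (88.1%) therefore may have lost or exchanged reads. Over the 14 genes past the filter with fewer shared stretches, medians were 6.64, 6.29 and 7.22 in WT libraries and 7.05, 6.51 and 6.67 in KO libraries. WT replicate 3 and KO replicate 1 again were highest, while the lowest was the library labelled WT replicate 2. Exons of 21 histone genes overlap those of another annotated gene, among them Hist1h1e and Hist1h2be with each other. Over the 37 genes without such overlap WT replicate 3 was at 7.17 and KO replicate 1 at 7.05, beside 6.30 to 6.77 elsewhere.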

How the data were processed

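RNA-seq of 6 liver tumor libraries, 3 per genotype, was analysed from the authors' deposited table, which holds normalized log2 expression per gene symbol. The study's methods name BWA, a mouse genome called Mm 8, featureCounts on uniquely mapped reads and DESeq2, whereas the submitters' processing notes list bcl2fastq 2.17, Trimmomatic 0.36, STAR 2.5.1, Subread, DESeq2 and GRCm38, and these sources differ. The log2 transform is not named. The values may be a regularized log, which was not tested. Neither depth nor the strand setting of counting is given in the sources used here. Of the table's columns, 3 without a name hold leftover cells and were not used, and 0 columns belong to other samples.

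The genotype difference of each gene was fitted by limma 3.58.1 (R 4.3.3; lmFit, eBayes with trend). Genes with a mean in the lowest 25% were left out, and p-values were adjusted by Benjamini-Hochberg over the 22677 that remained, with a threshold of 0.05. Libraries were grouped by their labels. On values simulated for these 22677 genes with the spread of the real libraries, the Top1mt-KO against WT fit recovered 8.5% of 200 genes moved by 1 log2 unit, 52.5% of those moved by 2 and 85% of those moved by 4, so most differences of 1 would be missed. Exonic lengths, positions and transcripts came from GENCODE M21 on GRCm38, the build of the processing notes, and promoters from RefSeq (GRCm38.p6). Alternatives were limma without trend, quantile normalization, other filters, a replicate block, leaving out libraries, and subsets of members. Named are Top1mt, the 10 histone genes highest per length, the 10 with the largest range, the 10 with the largest difference, all H1 genes past the filter and genes of the lists. Members and lists were chosen with earlier results of these data known.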

Additional observations from a re-analysis of the deposited data

How the results depend on the processing

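Under every alternative run, 0 histone genes had an adjusted p under 0.05 (limma). Of all genes tested, 0 passed in the reported fit, 4 with no filter and 1 without KO replicate 1, beside 859 to 1354 at an unadjusted p under 0.05 with libraries left out, 985 in the reported fit and 590 with the filter at the median, where fewer genes were tested. Quantile normalization moved the share of these that were higher in KO from 41.1% to 49.8%. The 1 histone gene higher in KO at an unadjusted p under 0.05 became 0 with limma without trend. Leaving out libraries gave 0 to 6 higher and 0 to 2 lower at that p, beside 1.61% to 2.81% higher and 2.13% to 3.51% lower of all genes tested. It gave 0 to 15 with all KO values above and 0 to 6 with all below WT, beside 7.32% to 15.3% and 8.54% to 18.3% of all genes tested, where fewer libraries make separation easier and the genes of the whole table whose groups did not overlap rose from 1877 to between 3598 and 7619. The highest of these counts, 7619, came without both the library labelled WT replicate 2 and KO replicate 1.

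The median difference of the histone genes ranged from -0.08 to 0.31 with libraries left out, a change of sign whose cause was not tested. Same-numbered libraries deviated together with correlations of -0.12, -0.08 and 0.05, and 2 of 6 libraries correlated best with their own number. With 3 libraries per genotype these values can neither show nor exclude a pairing. With the replicate block the median difference was 0.12, 912 genes in all had an unadjusted p under 0.05, and the histone gene past that p was the same.

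Library medians over members with few shared stretches were 6.64, 6.29 and 7.22 for WT, then 7.05, 6.51 and 6.67 for KO. The lowest of these was the library labelled WT replicate 2 in place of WT replicate 1. Over members above the median of all genes they were 6.30, 6.38 and 7.17 in WT and 7.05, 6.77 and 6.59 in KO. The range of these library medians was 0.93 and 0.87, beside 0.84 over all histone genes tested.

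Among H1 genes the sign of the difference turned for Hist1h1b to 0.0051 with quantile normalization, and with libraries left out differences ranged from -0.51 to 0.20 for Hist1h1a, -0.48 to 0.53 for Hist1h1b, -0.080 to 0.62 for Hist1h1c, 0.65 to 1.46 for Hist1h1d, -0.24 to 0.29 for Hist1h1e and -0.83 to 0.22 for Hist1h1t. The cause was not tested. Depth is unknown, so its effect on weak genes cannot be given.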
